A study of Mus musculus with 12 samples.

Results

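The healthy adult mouse spinal cord is described here from the 3 wild-type libraries of a series of 12. They were chosen by their genotype label, Plekhg5+/+ without a SOD1 transgene, and no measured value was used to choose them. The series addressed how the loss of Plekhg5 alters the phenotype of SOD1-G93A mice, and its other 9 libraries, 3 for each genotype, came from Plekhg5-/- mice, from Plekhg5+/+ mice with the human SOD1G93A transgene, and from Plekhg5-/- mice with that transgene. All mice were 7 months old and kept on a C57BL/6 background. The measurement was poly-A selected, stranded RNA sequencing of dissected spinal cord tissue, so that each library is a mixture of all cells of the dissected piece, and the level of the cord at which it was cut is not given in the sources used here. The labels number the mice but do not say whether a library held RNA of a single animal.

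The wild-type libraries held 34656751, 32235051 and 32661659 counts on exons. Levels are given as TPM, transcripts per 1000000, for which each gene's count was divided by its combined exon length and scaled so that all genes of a library sum to 1000000; levels of different genes are therefore compared per length. The count of human SOD1, which serves as a check of the labels, was 37.5, 52 and 5 in libraries 1, 2 and 3, while each of the 6 libraries with the transgene held at least 142348.5 counts. Plekhg5 stood at 12.1, 16.5 and 16.8 TPM. Y-linked Ddx3y stood at 64.4, 69.4 and 73.6 TPM and Xist, the X-inactivation RNA, at 0.0192, 0.0449 and 0.0274 TPM. Xist stood below Ddx3y in all 3 wild-type libraries and above it in 1 Plekhg5-/-, 1 SOD1G93A and 2 Plekhg5-/- SOD1G93A libraries.

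The spinal cord consists of a grey core, which holds the bodies and synapses of neurons, and a surrounding white matter of long axons wrapped in myelin. Oligodendrocytes make myelin, astrocytes clear transmitters and ions, and microglia are the resident immune cells. Motoneurons send their axons to muscle, and excitatory and inhibitory interneurons, which use glutamate, or GABA and glycine, form the local circuits. During development the position of a neuron along the body axis is set by Hox genes, transcription factors that lie in 4 clusters in the order of their expression from hindbrain to tail.

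A mean of at least 1 TPM was reached by 17843 of the 45906 genes in the table, and 14237 of these were protein-coding. That is 64.7% of the 22007 protein-coding genes. At a mean of 10 TPM the number was 11109, at 100 TPM 2017, and at 1000 TPM 84. The distribution was steep at its top. The 10 most abundant genes took 6.63%, 5.45% and 5.35% of all TPM in libraries 1, 2 and 3, and the 1000 most abundant genes took 50.8% ± 1.3 (SD, n = 3). Library 1 was the highest in both shares. At the other end, 3664 protein-coding genes had 0 counts in all 3 libraries. Among the 25 genes with the highest level in each library, 19 were shared by the 3 libraries, and among the highest 100, 89 were shared.

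Protein-coding genes took 88.7% ± 0.8 (SD, n = 3) of TPM. Pseudogenes took 5.07% and long noncoding RNAs 1.59%. The 87 genes of ribosomal proteins together took 3.55% of TPM. The table lists 2 ribosomal and 22 transfer RNAs of the mitochondrial genome, which together took 2.34% of TPM. The 13 mitochondrial messenger RNAs that were looked for matched none of its rows and were not analysed here. All totals, shares and ranks of TPM therefore leave them out.

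Fth1, the heavy chain of the iron store ferritin, had the highest mean level of the genes in the table, although mt-Rnr2 exceeded it in library 1. It lies on chromosome 19 from position 9980600 to 9985111 (GRCm38.p6, plus strand) and measured 11887, 10095 and 10714 TPM in libraries 1, 2 and 3. A myelin gene followed. Mbp, which encodes myelin basic protein, measured 5882, 5367 and 5453 TPM. Both genes varied by less than 10% (coefficient of variation) between the libraries. The ranges of Fth1 and Mbp did not overlap, so that their order was the same in the 3 libraries.

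Next came messenger RNAs of synapses and of energy supply. Snap25, a part of the machinery that fuses synaptic vesicles, stood at 3500 ± 138 TPM (SD, n = 3), and Ckb, the brain form of creatine kinase, at 3497 ± 83 TPM. Sparcl1, a matrix protein secreted by astrocytes, stood at 3354 ± 213 TPM. The ranges of these 3 genes overlapped, so that no order among them is given. Cst3, an inhibitor of lysosomal proteases, and Hspa8, the constitutive heat shock protein, reached 2886 ± 237 and 2739 ± 294 TPM. Atp1b1, a subunit of the sodium pump, stood at 2411 ± 134 TPM. Ppia, Nefl, Atp5b, Ptgds, Calm2, Hsp90ab1, Trf, Eef1a1 and Scd2 were further protein-coding genes among the highest 25, with means between 2075 and 2365 TPM. Of these, Nefl encodes the light neurofilament, Trf the iron carrier transferrin, and Scd2 an enzyme of fatty acid desaturation.

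Among the highest 25, 6 genes do not encode proteins. The mitochondrial ribosomal RNAs mt-Rnr2 (13920, 9367 and 7669 TPM) and mt-Rnr1 (10949, 8306 and 6582 TPM) were highest in library 1. In the 9 libraries of the other genotypes mt-Rnr2 lay between 6577 and 7486 TPM, so that every wild-type library was above that range. Bc1, a short cytoplasmic RNA of neurons, measured 3903, 2730 and 3980 TPM. Rn18s-rs5, a copy of the 18S ribosomal RNA, stood at 3749 ± 435 TPM. Mir5114 (3193 ± 538 TPM) and Mir6236 (3051 ± 715 TPM) are annotated as microRNA genes. The interval of Mir5114, 61 bases on chromosome 19 from 44303171 to 44303231, lies inside Scd2 on the same strand, and reads of the host gene cannot be told from its own. Reads of ribosomal RNA copies were shared as fractions between matching genes, so the levels of these entries are uncertain.

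**Figure D1:**
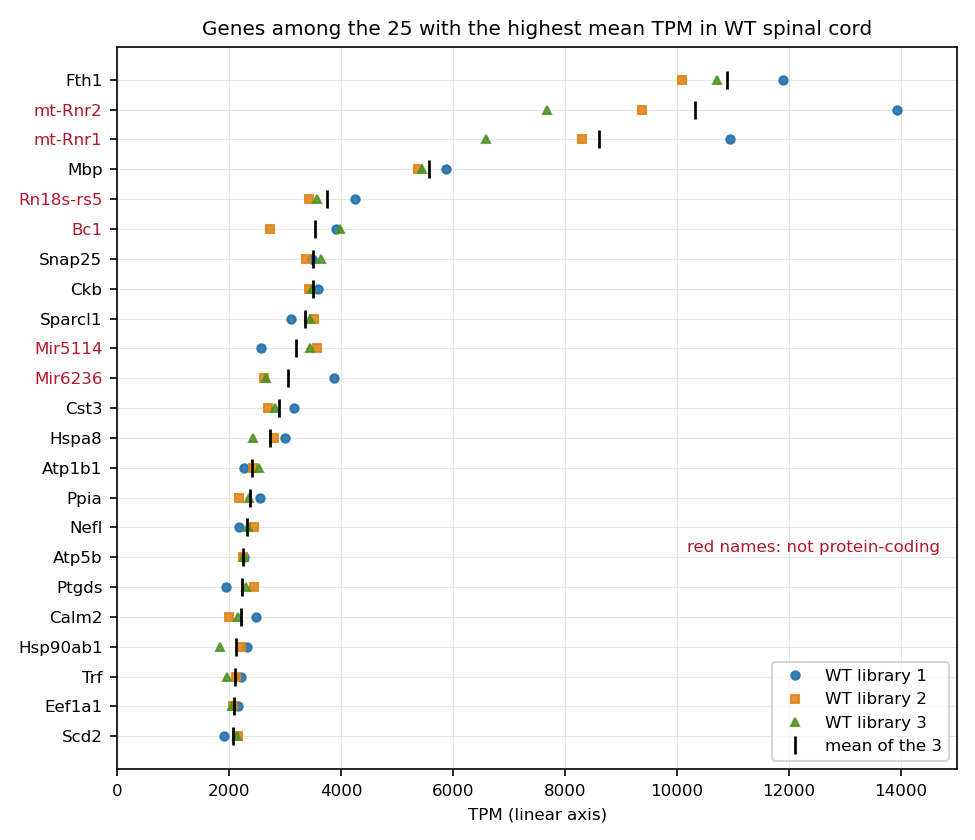
Genes among the 25 with the highest mean level in wild-type spinal cord, with 1 point for each of 3 libraries and a bar for their mean, on a linear TPM axis. Fth1 and both mitochondrial ribosomal RNAs lie apart from the rest, Mbp follows, and the genes from Cst3 on crowd between means of 2075 and 2886 TPM.

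Windows around a transcript start of 2 abundant genes are shown as RefSeq gives them on GRCm38.p6, from 250 bases before to 50 bases after that start, because they mark the genes on which the account of abundance and of position turns. Ckb lies on the minus strand, with the window at chr12:111672289-111672588. Hoxb8, the most abundant Hox gene, lies on the plus strand, with the window at chr11:96281655-96281954, whose start lies 2504 bases inside the gene as annotated in the count table. Capitals mark the letters TATAAA of the TATA motif, searched on both strands, so that a match on the other strand reads TTTATA.
Ckb: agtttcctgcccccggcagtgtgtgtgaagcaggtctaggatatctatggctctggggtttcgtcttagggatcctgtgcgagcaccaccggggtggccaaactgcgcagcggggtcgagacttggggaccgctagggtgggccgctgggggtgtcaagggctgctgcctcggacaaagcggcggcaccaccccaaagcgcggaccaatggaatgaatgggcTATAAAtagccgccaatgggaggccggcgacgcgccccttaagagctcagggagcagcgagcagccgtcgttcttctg
Hoxb8: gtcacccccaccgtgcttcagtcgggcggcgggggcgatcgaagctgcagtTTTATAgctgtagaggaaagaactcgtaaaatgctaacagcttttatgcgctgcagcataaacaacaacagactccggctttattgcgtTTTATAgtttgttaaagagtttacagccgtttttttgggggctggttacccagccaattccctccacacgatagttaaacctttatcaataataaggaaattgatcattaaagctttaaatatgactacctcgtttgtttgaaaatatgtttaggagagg
The Ckb window held the motif once, at base -28 from the start, and the Hoxb8 window held it 2 times on the other strand, at bases -199 and -110. Of all 32851 windows in the RefSeq set, 13.6% held TATAAA on either strand, and of the 85 windows that belong to 67 of the 100 most abundant protein-coding genes 14.1% did.

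Marker genes of the main cell types of the cord were present in every library. The 16 genes of the oligodendrocyte list summed to 19080, 17876 and 17886 TPM, the 14 genes of the neuron list to 14956, 15574 and 15626 TPM, and the 15 genes of the astrocyte list to 9227, 8980 and 8956 TPM. Together these 45 genes held 4.27% of all TPM, and each of them exceeded 10 TPM. The coefficients of variation of these sums were 3.79%, 2.42% and 1.66%. In bulk tissue, fewer cells of a type and less RNA per cell cannot be told apart.

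Besides Mbp, the oligodendrocyte list held Trf (2104 ± 131 TPM), Mobp (1870 ± 20 TPM) and Cnp (827 ± 9 TPM), of which Mobp and Cnp encode myelin components. Mag, which mediates the contact of myelin with the axon, stood at 792 ± 10 TPM. Opalin was the lowest member at 30.7, 33.4 and 48.6 TPM. Precursors of oligodendrocytes were represented by Olig1 (327 ± 3 TPM), a transcription factor of the whole lineage, followed by Lhfpl3, Ptprz1, Olig2 and Gpr17 between 23.6 and 73.1 TPM. Pdgfra, the growth factor receptor that defines these cells, stood at 17.9 ± 1.6 TPM. All 11 precursor genes exceeded 1 TPM, and their sum of 622 ± 18 TPM was much smaller than that of the mature list.

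Astrocytes were marked by Glul, which converts glutamate to glutamine, with 2030, 2048 and 2025 TPM, and by the glycolytic enzyme Aldoc with 1888, 1906 and 1882 TPM. Both genes varied by less than 1% between libraries. S100b stood at 1561 ± 122 TPM. Gfap, the intermediate filament of astrocytes, measured 1324, 1043 and 1114 TPM. Slc1a2, the main glutamate uptake carrier, measured 434, 608 and 612 TPM, lowest in library 1. Slc1a3, the second carrier, stood lower at 114 ± 5 TPM, and Aqp4, the water channel of astrocyte endfeet, at 338 ± 3 TPM.

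The neuron list was led by Snap25, Nefl (2321 ± 139 TPM), Nefm (2060 ± 129 TPM), Uchl1 (1510 ± 64 TPM) and the vesicle protein Syp (1019 ± 10 TPM). The 3 neurofilament genes, whose products fill large axons, summed to 4940, 5628 and 5349 TPM. Light and heavy chain kept a ratio of 2.51 ± 0.06 (Nefl over Nefh). Rbfox3, which encodes the neuronal nuclear antigen NeuN, was the lowest of the list at 15.5, 18.9 and 19.0 TPM. Thus single neuronal markers differed among themselves far more than any of them differed between libraries.

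Motoneuron genes were all detected, at levels between 2.93 and 93.1 TPM. Prph, a filament protein of neurons with peripheral axons, was the highest at 96.3, 92.7 and 90.3 TPM. The acetylcholine genes Slc5a7, Slc18a3 and Chat, which take up choline, load vesicles and make the transmitter, stood at 72.8 ± 8.1, 62.6 ± 2.7 and 34.4 ± 3.1 TPM. Ret, a receptor for neurotrophic factors, stood at 60.2 ± 9.0 TPM and Uts2, a peptide of motoneurons, at 52.1 ± 4.3 TPM. Chodl and Mmp9, markers of fast motoneurons, reached 32.1 ± 1.0 and 11.5 ± 1.7 TPM. The factors that specify motoneurons in the embryo, Mnx1, Isl1 and Isl2, remained measurable at 3.38, 3.15 and 2.93 TPM.

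Interneuron markers covered a wide range. The calcium-binding proteins Calb2 (452 ± 30 TPM), Pvalb (282 ± 31 TPM) and Calb1 (51.9 ± 3.8 TPM) led a list of 24 genes, of which 20 exceeded 1 TPM. Nos1, the neuronal nitric oxide synthase, stood at 28.3 ± 4.2 TPM. The transcription factors Lbx1 and Pax2, which mark dorsal and inhibitory classes, stood at 17.5 ± 2.7 and 16.8 ± 3.3 TPM, and Lmx1b and Tlx3, which mark dorsal excitatory cells, at 10.9 ± 0.4 and 8.58 ± 0.99 TPM. Of ventral classes, En1 stood at 3.01 ± 0.23 TPM and Evx1 at 1.37 ± 0.12 TPM. Sox14, Gata3 and Sim1 stayed under 1 TPM. Pkd2l1, a channel of the neurons that contact the central canal, reached 7.18 ± 0.96 TPM.

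Immune and vascular lists were smaller. All 15 microglia genes exceeded 1 TPM, and their sum was 1139, 1023 and 1204 TPM. High members were the complement genes C1qa (171 ± 22 TPM), C1qb (169 ± 20 TPM) and C1qc (148 ± 8 TPM), and the adaptor Tyrobp (97.2 ± 13.5 TPM). Further down, the microglia genes P2ry12 (37.3 ± 0.6 TPM), Cx3cr1 (36.5 ± 3.2 TPM) and Tmem119 (28.4 ± 4.1 TPM) were measured. Macrophages of the vessel wall had F13a1, Cbr2, Pf4, Lyve1 and Mrc1 between 2.56 and 5.12 TPM. None of the 9 lymphocyte genes reached a mean of 1 TPM; Cd79a, the highest, stood at 0.599, 1.31 and 0.978 TPM, and Cd3e had counts in library 2 only.

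Endothelial cells were represented by the glucose carrier Slc2a1 (205 ± 33 TPM), Itm2a (103 ± 8 TPM), the lipid carrier Mfsd2a (71.3 ± 7.6 TPM), Ly6c1 (56.5 ± 4.0 TPM) and the tight junction gene Cldn5 (45.6 ± 5.1 TPM). Their list of 12 genes summed to 605 ± 22 TPM. Vtn (96.7 ± 10.5 TPM), Rgs5 (72.4 ± 4.8 TPM) and Tagln (12.9 ± 2.1 TPM) led the pericyte and smooth muscle list. Pdgfrb and Notch3 followed at 8.12 and 6.74 TPM. The ependymal list, for the ciliated cells of the central canal, was led by Foxj1 (40.7 ± 2.9 TPM), the factor that drives ciliation, ahead of Rarres2, Rsph1, Ccdc153 and Tekt1, and summed to 113, 100.1 and 86.4 TPM.

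Cells that lie around the cord were present too. The fibroblast list summed to 2233, 2916 and 2613 TPM, of which Ptgds, an enzyme of prostaglandin synthesis, made up 2233 ± 263 TPM. Without Ptgds the list summed to 293, 466 and 306 TPM, highest in library 2. Mgp, Dcn, Ogn and Col1a2 led this remainder at 109 ± 34, 98.3 ± 38, 38.8 ± 15.4 and 30.7 ± 6.0 TPM. The Schwann cell list, for the myelinating glia of nerve roots, summed to 547, 648 and 285 TPM and was lowest in library 3 for 9 of its 10 genes. Pmp22, a protein of peripheral myelin that central glia also express, measured 250, 263 and 170 TPM. Drp2, Prx and Ncmap followed. Markers of ganglion neurons were low. Of 10, Pou4f1 (5.08 ± 0.57 TPM) and P2rx3 (1.67 ± 0.21 TPM) exceeded 1 TPM, and the pain channel gene Scn10a had 0 counts in library 1.

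**Figure D2:**
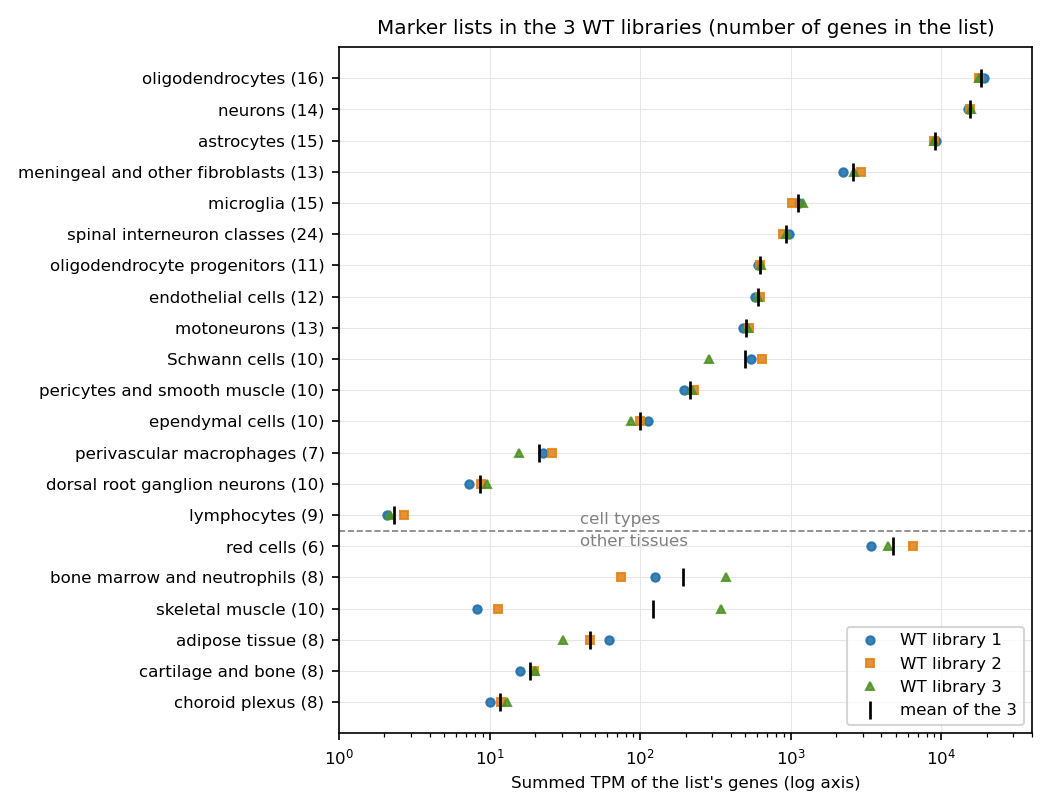
Summed TPM of each marker list in the 3 wild-type libraries on a log axis, with the number of genes of the list in brackets, cell types above the dashed line and other tissues below it. The points of the oligodendrocyte, neuron and astrocyte lists nearly coincide, whereas library 3 lies apart for Schwann cells, neutrophils and skeletal muscle.

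Of the lists for tissues that are no part of the cord, skeletal muscle and neutrophils differed most between the libraries. The coefficients of variation of their sums were 159.3% and 83.74%. Those of adipose tissue and red cells were 33.31% and 32.65%, and those of cartilage and bone and of choroid plexus 12.22% and 12.73%. The 10 skeletal muscle genes summed to 8.23, 11.4 and 346 TPM, and all 10 were highest in library 3. Acta1, the skeletal actin, measured 1.91, 3.34 and 101 TPM, and Ckm, the muscle creatine kinase, 0.243, 0.853 and 59.0 TPM. Mylpf, Tnni2 and Tnnt3, which encode parts of the contractile filaments, reached 67.8, 49.6 and 35.2 TPM in library 3, against at most 3.51 TPM in the other two. Counts behind these values in library 3 ran from 366 for Tnni2 to 1625 for Acta1.

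Windows of some of the muscle genes with the widest ranges between libraries are shown, picked by those ranges. They are Acta1 (chr8:123894726-123895025, minus strand), Ckm (chr7:19410844-19411143, plus strand), Mylpf (chr7:127211358-127211657, plus strand) and Tnnc2 (chr2:164779685-164779984, minus strand), where Tnnc2 encodes a calcium sensor of fast muscle. The start of the Mylpf window lies 2760 bases inside the gene as annotated in the count table, and the other 3 start at the gene's own first base. Capitals mark TATAAA and the E-box CAGCTG, which reads the same on both strands.
Acta1: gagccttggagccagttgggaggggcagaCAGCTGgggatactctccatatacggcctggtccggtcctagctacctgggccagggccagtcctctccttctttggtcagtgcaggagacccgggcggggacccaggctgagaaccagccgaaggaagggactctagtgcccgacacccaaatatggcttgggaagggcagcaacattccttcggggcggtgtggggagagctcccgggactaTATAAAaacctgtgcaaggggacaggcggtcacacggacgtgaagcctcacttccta
Ckm: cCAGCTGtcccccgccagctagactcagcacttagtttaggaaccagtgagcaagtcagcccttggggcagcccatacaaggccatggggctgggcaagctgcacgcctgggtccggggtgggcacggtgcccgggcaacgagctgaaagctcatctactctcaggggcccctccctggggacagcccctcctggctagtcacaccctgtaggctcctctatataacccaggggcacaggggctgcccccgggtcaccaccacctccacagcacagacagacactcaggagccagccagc
Mylpf: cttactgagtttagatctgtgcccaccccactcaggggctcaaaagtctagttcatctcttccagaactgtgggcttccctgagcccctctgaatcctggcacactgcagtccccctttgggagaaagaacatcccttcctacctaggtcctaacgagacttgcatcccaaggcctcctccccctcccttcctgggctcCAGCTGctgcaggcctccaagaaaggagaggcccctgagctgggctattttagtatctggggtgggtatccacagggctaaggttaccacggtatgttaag
Tnnc2: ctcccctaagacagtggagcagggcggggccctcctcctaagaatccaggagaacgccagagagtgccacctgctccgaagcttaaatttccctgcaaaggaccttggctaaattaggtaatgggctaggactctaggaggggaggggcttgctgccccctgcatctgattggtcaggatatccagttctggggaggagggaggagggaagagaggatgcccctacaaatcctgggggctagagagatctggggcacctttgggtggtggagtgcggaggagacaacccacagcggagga
CAGCTG stood at base -221 in the Acta1 window, at base -249 in the Ckm window and at base -51 in the Mylpf window, and the Tnnc2 window held neither motif. Of all windows 16.3% held the E-box. Because the genes were picked from these data, the motifs are shown as description only, and a part of them in the ranges was not tested. The TATA motif stood at base -7 of the Acta1 window.

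Blood and marrow genes also differed between libraries. The 6 red cell genes summed to 3424, 6494 and 4449 TPM, nearly all of it from the globins Hbb-bs (1064, 1976 and 1362 TPM), Hba-a1, Hba-a2 and Hbb-bt, whose near-identical copies share reads. All 6 genes were highest in library 2. Alas2, the erythroid enzyme of haem synthesis, measured 15.1, 35.4 and 25.8 TPM. Neutrophil genes behaved differently and were highest in library 3 for 8 of 8 genes. S100a9 measured 57.5, 34.0 and 163 TPM and S100a8 40.5, 20.3 and 123 TPM, ahead of Ngp, Retnlg and Camp. Across the 9 libraries of the other genotypes the neutrophil sum ran from 115 to 1263 TPM and the muscle sum from 12.0 to 176 TPM. Wild-type library 3 was above all of them for the muscle list and within their range for the neutrophil list.

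Adipose genes summed to 61.7, 46.4 and 30.8 TPM, led by Fabp4 (42.9, 21.8 and 14.6 TPM) and by Car3 (12.4 ± 0.7 TPM), and Cfd, Adipoq and Cidec stood between 1.45 and 3.38 TPM. The cartilage and bone list contained Acan (13.5 ± 2.3 TPM), which also forms the nets around neurons, and Col2a1 (1.87 ± 0.34 TPM), while Comp, Chad and Bglap stayed under 1 TPM. Choroid plexus genes were low. Prlr and Kl were the highest at 3.63 ± 0.41 and 3.41 ± 0.35 TPM, Clic6, Aqp1 and Folr1 stood between 1.19 and 1.98 TPM, and Ttr, the leading transcript of that tissue, averaged 0.145 TPM.

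The positional code of the cord was carried by 33 of 39 Hox genes at a mean of at least 1 TPM. Their sum was 1051, 1090 and 1066 TPM, a coefficient of variation of 1.88%. Hoxb8 was the highest at 171, 163 and 176 TPM, above every other Hox gene in every library. Hoxb9 (93.6 ± 4.0 TPM), Hoxb6 (86.8 ± 5.8 TPM) and Hoxc8 (85.8 ± 0.9 TPM) came next, and the ranges of Hoxb6 overlapped with those of both neighbours. Hoxd8 stood at 77.4 ± 1.4 TPM. All 3 genes of paralogue group 8 were thus among the highest 5, and group 8 alone summed to 336, 327 and 336 TPM.

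The sums per paralogue group peaked at group 8 and declined after it, with group 7 below its neighbours. The groups differ in size, with 2 genes in group 7, 3 in groups 6 and 8, and 4 in group 9. The sums are therefore not levels per gene. Groups 1 to 3, the most rostral, summed to 59.6 ± 5.9 TPM, with Hoxb2 (21.9 ± 1.2 TPM) and Hoxd3 (15.6 ± 2.4 TPM) as the highest, Hoxb3 at 8.89 TPM, Hoxa2 at 5.5 TPM, Hoxa3 at 4.28 TPM and Hoxd1 at 2.26 TPM. Hoxb1, which marks the hindbrain, averaged 0.0586 TPM. Groups 4 to 9 summed to 903 ± 15 TPM, or 891, 897 and 920 TPM in the libraries. Of their members, Hoxb5 (61.9 TPM), Hoxa5 (57.1 TPM), Hoxb7 (40.7 TPM), Hoxa7 (40.5 TPM), Hoxa6 (36.6 TPM) and Hoxa9 (34.5 TPM) exceeded 30 TPM besides those already given. Hoxd4, Hoxd9, Hoxc9, Hoxa4, Hoxc5, Hoxc6, Hoxc4 and Hoxb4 lay between 9.46 and 21.8 TPM.

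Caudal Hox genes varied most between the libraries. Groups 10 to 13 summed to 106, 132 and 82.3 TPM, highest in library 2 and lowest in library 3. Hoxc10 measured 54.5, 63.1 and 44.0 TPM, Hoxa10 20.8, 22.4 and 16.9 TPM, and Hoxd10 16.5, 23.4 and 13.3 TPM. The difference widened towards the tail. Hoxd11, Hoxa11 and Hoxc11, with means of 3.78, 3.45 and 3.34 TPM, had the same order of libraries, and Hoxc12 measured 3.21, 5.86 and 0.917 TPM. Group 13 summed to 0.720, 2.7 and 0.269 TPM. Variation between the libraries also rose as levels fell across protein-coding genes, as given below. The part of this in the widening was not tested. In the other 9 libraries groups 10 to 13 ranged from 44.6 to 127 TPM, so that wild-type library 2 lay just above them.

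The Hoxb cluster contributed 493 ± 16 TPM, the Hoxa cluster 219 ± 13 TPM, the Hoxc cluster 198 ± 17 TPM and the Hoxd cluster 159 ± 12 TPM. The partners with which Hox proteins bind DNA were all above 10 TPM, from Pbx4 at 10.7 to Pbx2 at 39.9 TPM, with Pbx3, Meis2 and Meis3 in between. Among noncoding RNAs of the clusters Hotairm1 was the highest at 46.5, 37.2 and 39.7 TPM, followed by Hoxb3os, Hoxb5os, Haglr and Hoxaas2 between 3.81 and 9.03 TPM. Hottip, from the caudal end of the Hoxa cluster, had 0 counts, which allows up to 0.105 TPM at the depth of the library with the largest TPM per count.

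**Figure D3:**
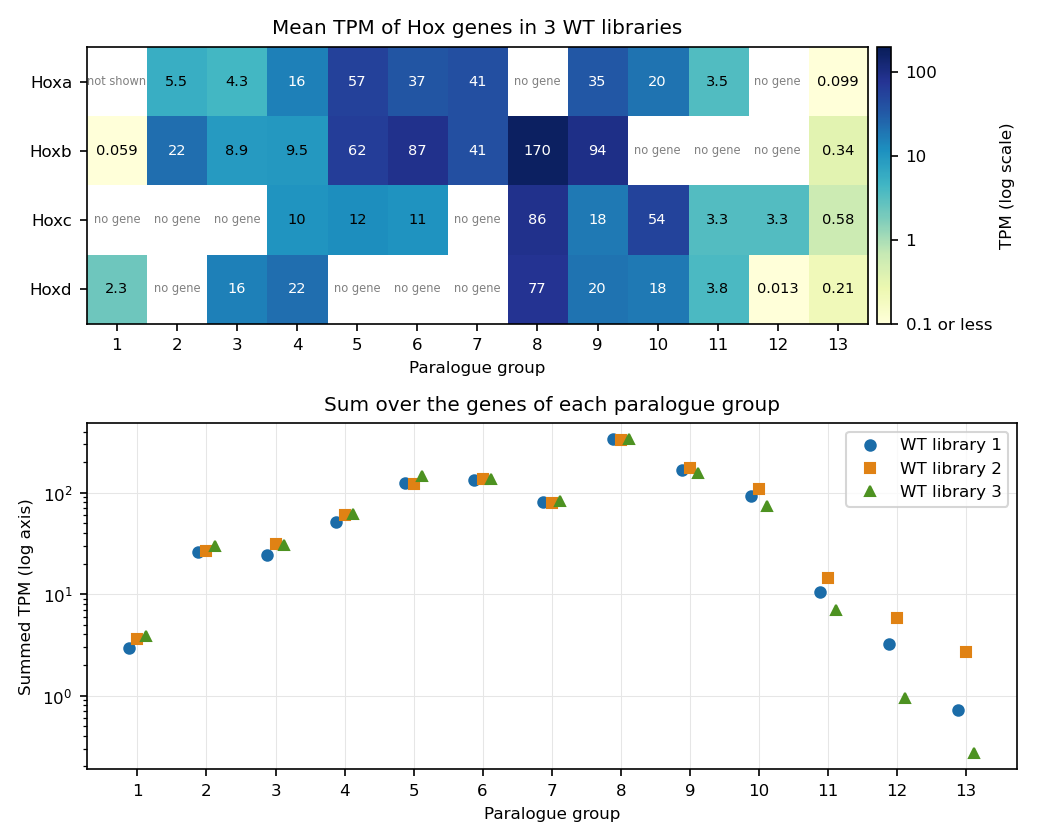
Mean TPM of Hox genes by cluster and paralogue group in a colour map on a log scale, and below it the sum of each paralogue group in the 3 wild-type libraries on a log axis. Levels peak in group 8 and fall steeply after group 10, where the points of the libraries spread apart, library 2 above and library 3 below.

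Regional factors of the forebrain and midbrain were at or near 0. Of 15 genes, Six3, Otx1, Nkx2-1 and Dlx5 had 0 counts in all 3 libraries, which allows at most 0.141 TPM for any of them. Neurod6 (6.70 ± 0.95 TPM), Pax6 (5.03 ± 0.49 TPM) and En2 (3.44 ± 0.96 TPM) were the exceptions above 1 TPM, and Barhl1 and Lhx2 stood at 0.663 and 0.501 TPM. Pax6 is also used by cells of the spinal cord. Otx2, which the choroid plexus list held, had 0 counts as well.

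Glutamate was represented almost entirely by 1 of the 3 vesicular carriers. Slc17a6, which loads glutamate into vesicles, measured 170, 194 and 208 TPM, while Slc17a7, the form that prevails in cortex, measured 3.62, 3.39 and 2.83 TPM and Slc17a8 1.00, 1.19 and 1.31 TPM. The ratio of Slc17a6 to Slc17a7 was 59.2 ± 13.3. Gls2, a glutaminase that makes glutamate, stood at 57.3 ± 3.0 TPM and the neuronal uptake carrier Slc1a1 at 79.8 ± 7.0 TPM.

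Genes of the inhibitory transmitters were abundant. Slc32a1, which loads both GABA and glycine into vesicles, measured 130, 155 and 155 TPM. Its ratio to Slc17a6 was 0.766, 0.800 and 0.746. Slc6a5, the glycine carrier of inhibitory terminals, measured 148, 227 and 224 TPM, so that it was below Slc17a6 in library 1 and above it in the other two. Gad1 and Gad2, which make GABA, stood at 111 ± 5 and 43.3 ± 6.2 TPM, in a ratio of 2.60 ± 0.30. Slc6a5 exceeded Gad1 in every library by 1.39, 2.06 and 1.93 times. Of the uptake and breakdown genes, Abat stood at 471 ± 65 TPM, Slc6a11 at 403 ± 59 TPM and Slc6a9, the glial glycine carrier, at 212 ± 24 TPM.

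All 8 genes of this list were lowest in library 1, with a median log2 deviation from the mean of the libraries of -0.23. Over all genes of at least 1 TPM the median deviation of that library was -0.07. The lean was not particular to inhibitory genes. Library 1 was lowest for 18 of 18 ionotropic glutamate receptor genes (median -0.23) and 7 of 8 metabotropic ones (-0.23). It was also lowest for 5 of 6 genes of glutamate synthesis and transport (-0.16). Neuropeptide precursors went the other way, with 6 of 30 lowest there and a median of 0.10. Library 1 also deviated more for longer genes, from 0.06 in the shortest to -0.18 in the longest of 5 bins of nearly equal size of protein-coding genes by exon length, whereas libraries 2 and 3 deviated by 0.11 and 0.06 in the longest bin. The part of this trend in the levels of the transmitter genes was not tested.

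Acetylcholine and monoamines differed in what the cord contained. Ache, which splits acetylcholine, was the highest cholinergic gene at 147 ± 9 TPM, and Bche the lowest at 7.39 ± 1.57 TPM. Slc17a6 exceeded Slc18a3 by 3.04 ± 0.24 times. Enzymes that break down monoamines were expressed at 51.6 ± 4.4 TPM (Maoa) and 42.0 ± 1.3 TPM (Maob). Synthesis genes were lower. Ddc, the shared decarboxylase, stood at 17.1, 11.9 and 20.1 TPM and Th, the first enzyme of dopamine synthesis, at 7.22, 6.09 and 6.82 TPM. Hdc (2.81 TPM), Slc18a1 (1.46 TPM) and Tph2 (1.17 TPM) were just above 1 TPM. Genes of the aminergic neurons whose bodies lie in the brainstem, Slc18a2, Slc6a3, Dbh, Slc6a4 and Slc6a2, stayed between 0.0931 and 0.238 TPM, Tph1 averaged 0.013 TPM, and Pnmt, the enzyme that makes adrenaline, had 0 counts.

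Neuropeptide precursors were led by Penk, the precursor of the enkephalins, with 441, 359 and 415 TPM. Sst, for somatostatin, measured 283, 215 and 269 TPM, Tac2, for neurokinin B, 121.3, 107.6 and 126.8 TPM, and Tac1, the precursor of substance P, 69.7, 53.1 and 71.9 TPM. These 4 genes kept their order in each library. Npy stood at 61.0 ± 8.3 TPM, Cck at 49.0 ± 3.9 TPM, Nts at 48.0 ± 6.1 TPM, and Calca, which encodes the calcitonin gene-related peptide of motoneurons, at 43.9 ± 3.1 TPM. Cartpt, Nmu, Gal, Pdyn, Adcyap1, Pnoc, Grp, Npff and Calcb lay between 10.02 and 32.04 TPM. Penk exceeded Pdyn, the dynorphin precursor, by 17.5, 16.9 and 17.7 times.

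Lower peptides were Trh, Nmb, Vip and Crh between 3.24 and 8.26 TPM, and Pomc, Pmch and Ucn between 1.13 and 1.90 TPM. Oxt, Hcrt, Kiss1 and Tac4 stayed at or below 0.263 TPM. Avp, a hypothalamic peptide, had 0 counts in all 3 libraries. In total 25 of 30 precursor genes exceeded 1 TPM. Of the 30, 16 were highest in library 1 and 19 were lowest in library 2, ties left out.

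**Figure D4:**
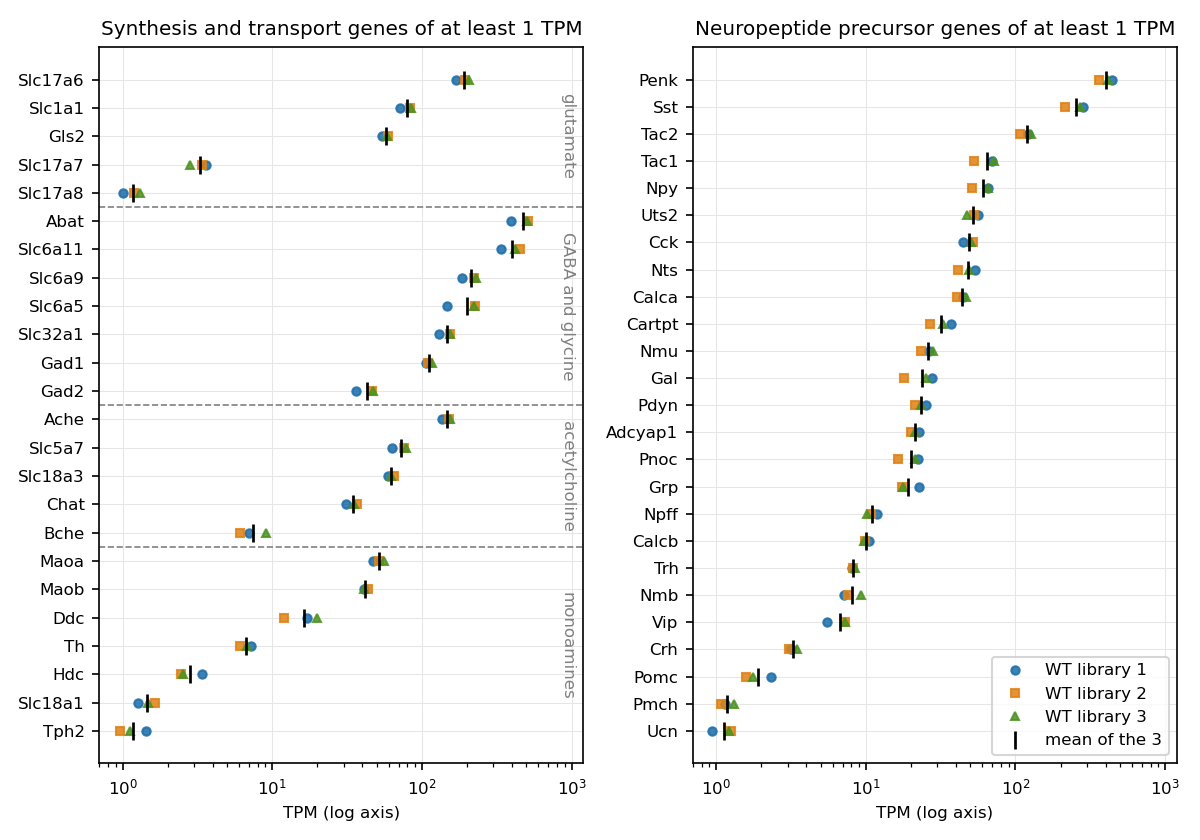
TPM of genes for synthesis and transport of transmitters and of the neuropeptide precursors with a mean of at least 1 TPM, in the 3 wild-type libraries, on log axes with a bar for the mean. Slc17a6 lies far above Slc17a7 and Slc17a8, and library 1 lies lowest for each gene shown in the GABA and glycine block, although it is highest for many peptides.

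Receptors followed the transmitters. All 18 ionotropic glutamate receptor genes exceeded 1 TPM, led by the NMDA receptor subunit Grin1 (229 ± 32 TPM) and by the AMPA receptor subunits Gria4 (112 ± 15 TPM), Gria1 (84.9 ± 4.3 TPM), Gria3 (75.1 ± 11.8 TPM) and Gria2 (60.3 ± 6.2 TPM). Gria4 was the highest AMPA subunit in each library. Metabotropic receptors were led by Grm5 at 42.8 ± 4.9 TPM, ahead of Grm3, Grm4 and Grm7, and Grm6, a gene of the retina, had 0 counts. GABA receptors were led by the metabotropic subunit Gabbr1 (253 ± 17 TPM) and by Gabra3 (123 ± 10 TPM), with Gabbr2 at 90.6 TPM. Gabra6, which is typical of the cerebellum, had 0 counts.

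Glycine receptors held the most uneven gene of this group. Glrb, the common subunit, stood at 350, 370 and 396 TPM. Glra1, the adult alpha subunit, measured 62.6, 241 and 217 TPM, and library 1 was lower than the others by a factor of 3.85 between the highest and the lowest library. Counts were 1760, 5776.5 and 5337.5, so that the difference does not rest on few reads. Across the 9 other libraries Glra1 lay between 107 and 246 TPM, above wild-type library 1. Glra3 and Glra2 stood at 17.8 ± 2.2 and 10.4 ± 0.8 TPM without such a gap, and Glra4 at 0.951 TPM.

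Muscarinic Chrm2 (44.0 ± 5.2 TPM) and the nicotinic subunits Chrna4 (37.6 ± 5.6 TPM) and Chrnb2 (33.1 ± 4.4 TPM) were the highest acetylcholine receptors, before Chrna7 and Chrm3 at 15.6 and 9.96 TPM. Chrna9 had 0 counts, and Chrna1, the subunit of the muscle receptor, averaged 0.184 TPM. Monoamine receptors were led by the serotonin receptor Htr2c (87.8 ± 12.5 TPM), the adrenergic receptor Adra2a (33.7 ± 3.1 TPM), Htr7 (24.4 ± 1.7 TPM), Hrh3 (22.8 ± 1.6 TPM) and the dopamine receptor Drd2 (21.4 ± 1.3 TPM), and the histamine receptor Hrh4 had 0 counts. Ntsr2, a neurotensin receptor also found on astrocytes, was the highest peptide receptor at 273 ± 6 TPM, ahead of Oprl1 (63.8 ± 5.1 TPM), Cckbr, Tacr3 and Tacr1. The mu opioid receptor Oprm1 measured 1.48, 6.09 and 4.78 TPM, again lowest in library 1.

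The 3 libraries were otherwise close. Over the 11109 genes of at least 10 TPM the median coefficient of variation was 7.79%, and 96.1% of the genes had a range of less than 1.5-fold between the highest and the lowest library. A range of 2-fold or more was found for 94 genes, 0.846% of those measured. Of these 94, 53 were protein-coding, 32 were snoRNA, miRNA or snRNA genes, and 35 had a mean below 100 counts. Among protein-coding genes of at least 10 TPM the share was 0.536%. The median coefficient of variation fell with level, from 13.5% for protein-coding genes between 1 and 10 TPM to 5.996% for the 75 genes above 1000 TPM, of which none had a 2-fold range.

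Pairs of libraries had correlations of log2 levels across 17843 genes of 0.989 (libraries 1 and 2), 0.987 (1 and 3) and 0.989 (2 and 3), which describe the libraries and share the gene set. A chi-square of their counts gave 21.4, 22 and 6.97 per degree of freedom for the same pairs, so that none of the libraries was a copy of another. With edgeR the biological coefficient of variation over 20155 genes was 11.4% in the wild type, 12.6% in Plekhg5-/-, 12.9% in SOD1G93A and 8.24% in Plekhg5-/- SOD1G93A mice, and the same 2-fold range was found for 1.02%, 1.57% and 0.621% of genes of at least 10 TPM in these other groups.

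The widest ranges belonged to Snord64, a small nucleolar RNA with 0, 6 and 8 counts, and then to the muscle genes Ckm, Tnnt3, Tnnc2, Tnni2, Acta1 and Mylpf. After them came Hspa1b, S100a8 and the snoRNA LOC115487678. Hspa1b, an inducible heat shock protein, measured 132, 90.02 and 18.5 TPM. In 34 of the 53 protein-coding genes library 3 stood apart from the other two, 9 times above and 25 times below them. Library 1 stood apart in 13 genes, 11 of them below, and library 2 in 6 genes, all above.

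The genes lower in library 3 included several that respond to stress or to neuronal activity. Hspa1a, the twin of Hspa1b with which it shares reads, measured 106, 79.7 and 19.2 TPM, and in the other 9 libraries it lay between 9.04 and 22.8 TPM. Wild-type libraries 1 and 2 were thus above all the other libraries for this gene, and library 3 was within their range. All 10 heat shock genes were lowest in library 3 and highest in library 1. Their sum of 8794, 7991 and 6644 TPM was led by Hspa8, Hsp90ab1, Hsp90aa1 (1484 ± 120 TPM), Hspa5 (736, 616 and 371 TPM) and Hsph1 (449, 392 and 309 TPM).

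Sgk1, a kinase induced by glucocorticoids, measured 247, 205 and 59.0 TPM, and 8 of the 10 genes on the list of glucocorticoid-responsive genes were lowest in library 3. The metallothioneins Mt2 (728 ± 105 TPM) and Mt1 (571 ± 41 TPM) led this list, and Tsc22d3 and Cdkn1a stood at 179 ± 34 and 57.5 ± 13.4 TPM. Fkbp5, of the same list, varied little at 38.7, 36.7 and 37.4 TPM. Immediate early genes, which neurons switch on within minutes of activity, were lowest in library 3 in 12 of 15 cases. Fos measured 54.4, 46.9 and 20.4 TPM and Egr1 66.1, 71.5 and 33.8 TPM, while Jun (47.8 ± 0.2 TPM), Arc (37.1 ± 2.7 TPM) and Dusp1 (26.3 ± 4.8 TPM) varied less than 2-fold. Clock genes did not follow this order. Tef, Nr1d2, Nr1d1, Cry2 and Dbp led that list at 61.0 to 120 TPM, and 7 of its 15 genes were lowest in library 3. The median log2 deviation of library 3 was -0.40 for the glucocorticoid list and -0.45 for immediate early genes, beside 0.03 over all genes of at least 1 TPM. For Fos, Egr1 and Sgk1 libraries 1 and 2 were above all libraries of the other genotypes (at most 42.7, 49.9 and 191 TPM). Library 3 was within their range for these genes, and Jun, Arc and Dusp1 were within it in every wild-type library.

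Neuronal genes were among those lower in library 1. Sv2c, a synaptic vesicle protein, measured 57.0, 161 and 158 TPM, Lingo4 10.4, 31.2 and 28.3 TPM, and the lipid flippase Atp8a2 29.7, 78.4 and 74.9 TPM, and they were named after their values had been seen, as was Oprm1 above. Snhg11 at 500, 784 and 706 TPM and the long noncoding RNA Meg3 at 387, 665 and 526 TPM were also lowest in library 1, as were Rian, Malat1 and Miat at 411 ± 25, 127 ± 30 and 94.8 ± 23.9 TPM.

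At the other extreme, Ptpdc1, Arl4a, Atp5b, Nipsnap1 and Golph3 had the smallest coefficients of variation, between 0.0918% and 0.152%. Atp5b, the catalytic subunit of the mitochondrial ATP synthase, measured 2257, 2253 and 2259 TPM. The 10 genes widely used as references summed to 7745, 7391 and 7564 TPM, with Ppia at 2365 ± 189 TPM, Gapdh at 996 ± 20 TPM, Actb at 951 ± 35 TPM and Sdha at 603 ± 17 TPM. None of the 10 had a 2-fold range. Of the list genes of at least 10 TPM, 22 of 310 had one, or 7.10%, beside 0.846% of all genes of at least 10 TPM. The lists for other tissues and for stress were chosen because they can vary. Skeletal muscle supplied 5 of the 22, neutrophils 3, and adipose tissue and red cells 1 each. Immediate early genes supplied 3, and glucocorticoid-responsive genes and heat shock proteins 2 each. The rest came from the fibroblast (2), Schwann cell (2) and glycine receptor (1) lists.

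**Figure D5:**
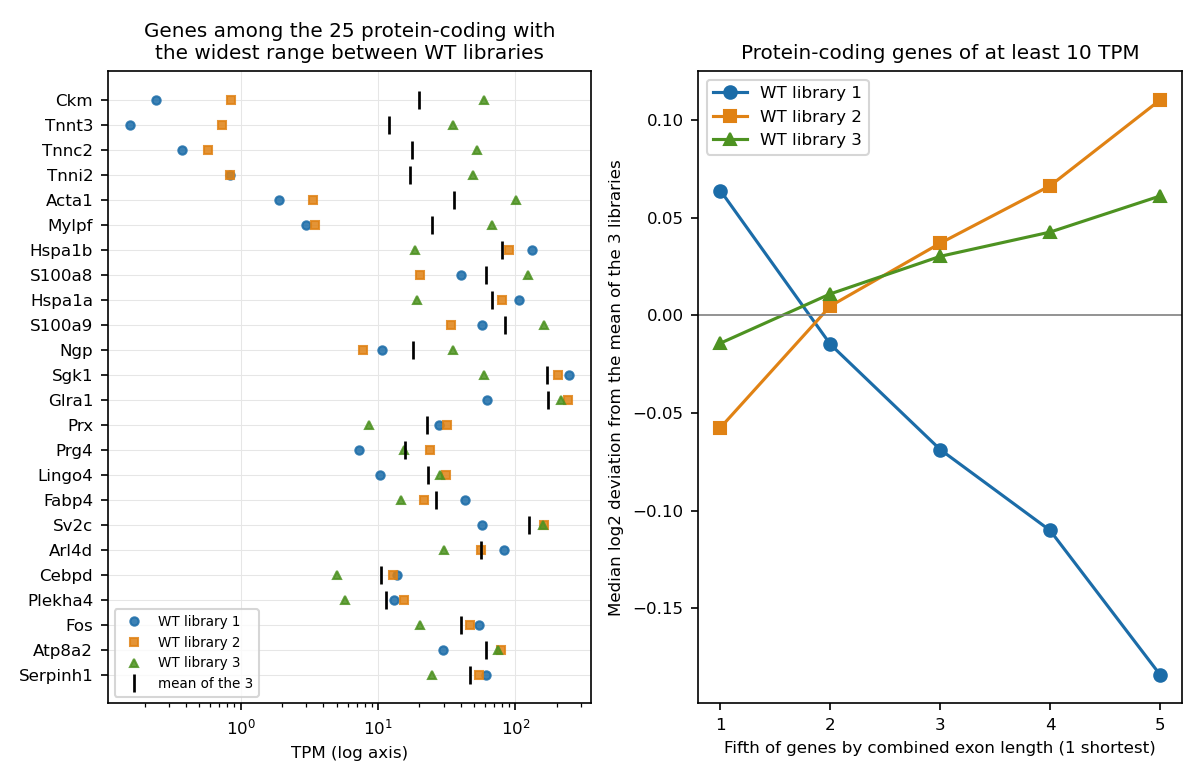
Left, TPM in the 3 wild-type libraries of genes among the 25 protein-coding ones with the widest range, of those of at least 10 TPM, on a log axis. Right, the median log2 deviation of each library from the mean of the 3, for 5 bins of nearly equal size of the protein-coding genes ordered by combined exon length. Muscle genes lie far to the right in library 3, and library 1 falls from 0.06 to -0.18 with length.

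How far these wild-type levels hold in the other genotypes was asked with edgeR's quasi-likelihood test of each genotype against the wild type, with Benjamini-Hochberg adjustment over 20155 genes. The 3 comparisons share the wild-type libraries. Against Plekhg5-/- mice 0.0298% of the genes differed (0.0149% higher, 0.0149% lower) and against Plekhg5-/- SOD1G93A mice 0.0496% (0.0298% higher, 0.0198% lower), and no member of the lists or of the 100 most abundant genes was among them, although 1073 and 1910 of all genes had an unadjusted p under 0.05. DESeq2 called 34 and 61 genes in these comparisons. Against SOD1G93A mice 2.47% of the genes differed, 422 (2.09%) higher and 76 (0.377%) lower than in the wild type. Of the 100 most abundant genes 4 did, beside 2.47% of all genes. Gfap, Clu and Apoe, of which Gfap is a filament of astrocytes and Clu and Apoe are carriers of lipid, were higher in SOD1G93A mice, by 1.23 ± 0.22, 0.61 ± 0.13 and 0.73 ± 0.17 on the log2 scale (SE; edgeR adjusted p = 0.0198, 0.0299 and 0.0466), and Hsp90aa1 was lower.

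The microglia list had 12 of 15 genes higher and none lower, and a median log2 difference of 1.13 beside a median of -0.000994 over all genes. Within it Trem2, Csf1r and Tyrobp had the smallest adjusted p (edgeR, 0.0125, 0.0146 and 0.0153), with log2 differences of 1.79 ± 0.26, 0.89 ± 0.15 and 1.68 ± 0.27 (SE). In the wild type Trem2 measured 33.1, 28.1 and 29.4 TPM. Lists of blood cells lay in the same direction with no gene called. The neutrophil list had 8 of 8 positive differences (median 1.58), the lymphocyte list 5 of 5 tested (median 1.22) and the red cell list 6 of 6 (median 0.63), and their part in the microglia result was not tested. Opalin, Gfap, Sox9, Ms4a7, Tagln and B2m were the other list members that were higher, and Ly6c1, Chodl, Hsph1 and Hsp90aa1 were lower. Chodl fell by 0.83 ± 0.18 and Hsph1 by 0.74 ± 0.13 on the log2 scale (SE; edgeR adjusted p = 0.0387 and 0.0146). Hsph1 is among the heat shock genes that were highest in wild-type library 1. In every library of the other genotypes Hsph1 was at most 280 TPM and Hsp90aa1 at most 1300 TPM. Every wild-type library was above these levels, with at least 309 and 1387 TPM. The heat shock list had a median log2 difference of -0.564 in SOD1G93A, -0.505 in Plekhg5-/- and -0.475 in Plekhg5-/- SOD1G93A mice, so that its lower level was not particular to SOD1G93A mice. No gene of the Hox, transmitter, peptide or receptor lists was called in any of the 3 comparisons.

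These calls varied with the libraries in the fit. With the SOD1G93A and wild-type libraries alone in the fit 3 genes were called, and without wild-type library 1 or library 2 4 and 2 genes were called, so that all 24 called genes of the lists and the 100 most abundant genes lost their call in each of these 3 settings, with no change of sign. The wild type differed from each other group in the share of libraries with Xist above Ddx3y. With that as a term in the fit, an alternative chosen after the data were seen, 613 genes were called against SOD1G93A mice and 23 of the 24 kept their call. Without the 4 libraries with Xist above Ddx3y 107 genes were called and 9 of the 24 kept theirs.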

How the data were processed

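Poly-A selected RNA of mouse spinal cord was sequenced in 12 libraries as 75 nt single-end reads. According to the methods and the submitters' processing notes, the authors trimmed reads with Cutadapt 2.4, mapped them with STAR 2.7.2b to GRCm38.p6 plus the human SOD1 cDNA, and counted them by strand on exons with featureCounts 1.6.4. Reads that matched several genes were split between them, so the deposited values are estimated counts, and 17.6% to 17.8% of the rows of the wild-type libraries were not whole. The levels of repeated, overlapping or near-identical genes are uncertain for that reason. Combined exon length was taken from the same table, and the deposited columns held no authors' comparisons.

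Levels were computed as TPM with Python 3.11.15, pandas 2.3.3 and numpy 2.4.6, and are described without a test. A gene with 0 counts was given an upper limit of 3 counts, which covers counting error only. Spread was assessed for genes with a mean of at least 10 TPM. Genotypes were compared with edgeR 4.0.16 (R 4.3.3) on counts rounded to whole numbers, with TMM scaling, the filterByExpr filter, a robust quasi-likelihood fit over all 12 libraries and an adjusted p threshold of 0.05. The fit was tested on simulated data. The p-values set each group difference against a spread estimated over all 12 libraries. DESeq2 1.42.0 served as an alternative, as did other lengths, filters, scalings and the omission of single libraries.

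The genes named are the 25 most abundant, the 5 highest and the undetected members of each list, all Hox, transmitter and peptide genes, the 10 widest and 5 narrowest in spread, and up to 3 called members of a list. Some genes that this rule names are not reported here. Further list members were named after their values had been seen. The members and lists were chosen with earlier results of these data known. Protein sequences were not compared. Gene lists had 569 of 584 entries in the table. Mitochondrial messenger RNAs matched no row of the counts and were not analysed here.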

Additional observations from a re-analysis of the deposited data

How the results depend on the processing

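The wild-type values depended mainly on gene length and on shared reads. With counts scaled to 1000000 and no length, the 10 most abundant genes took 4.893%, mitochondrial RNAs 0.7998%, the oligodendrocyte list 27830, the ratio of Slc32a1 to Slc17a6 was 0.6969, and 52 genes had a 2-fold range. With effective length the oligodendrocyte list summed to 17340 TPM and 162 genes had such a range. With only genes of whole counts, which leaves fewer genes, 11125 genes and 15 Hox genes reached 1 TPM, mitochondrial RNAs took 3.342%, the oligodendrocyte list 5299 TPM, and 166 genes had a 2-fold range. In this setting TPM was rescaled over the genes kept, so that the named genes rose to a median of 2.7 times their main level. Its values are therefore on another scale than the main ones. Without mitochondrial genes the 10 most abundant took 4.65%, and their own share then has no value. Alternatives added after the data were seen gave 4.769% for coding genes only, 53 coding genes with a 2-fold range, and 59 such genes with at least 100 counts. Leaving out single libraries gave 39 to 59 such genes.

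The counts of genes called between genotypes (6, 498 and 10) varied more. Against Plekhg5-/- mice DESeq2 called 34 genes, or 32 with a prior, and leaving out libraries gave 5 to 59, the highest without wild-type library 3. Against SOD1G93A mice DESeq2 called 1159, or 1190 with a prior, the fit of 2 groups 3, and leaving out libraries gave 2 to 771, with 4 without wild-type library 1, 2 without library 2, 223 without SOD1G93A library 1 and 771 without SOD1G93A library 2. Against Plekhg5-/- SOD1G93A mice DESeq2 called 61, or 55 with a prior, genes of at least 10 counts in every library gave 5, the fit of 2 groups 113, and leaving out libraries gave 5 to 38, with 5 without wild-type library 1 or library 2 of that genotype and 38 without wild-type library 3. The cause was not tested. With the replicate number as a replicate block, 8, 631 and 15 genes were called, but same-numbered samples correlated by only -0.163 to 0.318 and 2 of 9 correlated best with their own number, so that the numbers do not pair the samples. Chosen after seeing the data, a term for Xist above Ddx3y gave 6, 613 and 14 called genes, and leaving out the 4 libraries with Xist above Ddx3y gave 2, 107 and 1.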
